A study of Rattus norvegicus with 16 samples.

Results

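The genes described here encode the proteins of the cytosolic ribosome, and they were chosen by symbol alone (Rpl or Rps and a number, or Rplp0, Rplp1, Rplp2 and Rpsa, without the Rps6k kinases and without pseudogenes). Of 14217 genes measured by probesets that list a single gene, 48 were ribosomal protein genes (0.338%). They comprised 13 genes of the small subunit, 28 of the large subunit, the stalk gene Rplp0, and 6 copies or paralogs of ribosomal protein genes. A further 36 probesets list a ribosomal protein symbol together with other genes, mostly copies of it, and were set aside from the gene counts. For this reason Rplp1, Rpl10, Rpl10a and Rpl38 have no value of their own below, and Rps19 and Rps25 are described only through shared probesets. Rplp2 and Rps27a were not analysed here.

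The samples were dorsal hairy skin of adult female Sprague-Dawley rats, 1 Affymetrix expression array per sample. Naïve skin came from 6 rats without surgery. Denervated skin was taken from 5 rats 7 days and from 5 more rats 14 days after the cutaneous nerves of the T9 and T10 segments had been cut and ligated, so that the operation and the loss of innervation cannot be told apart. Each sample also holds the cutaneous trunci muscle beneath the dermis, which kept its own nerve supply. Values are log2 levels made by robust multi-array averaging (RMA), differences are denervated minus naïve, and a gene was called at a Benjamini-Hochberg adjusted p under 0.05 over all 14217 genes in limma, a linear model with moderated errors.

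The cytosolic ribosome reads messenger RNA and joins amino acids into protein. Its small subunit decodes the message and its large subunit forms the peptide bond and houses the exit tunnel. Each ribosome needs the same set of proteins, and cells make them in step. In vertebrates their messages begin with a C and a run of pyrimidines, the 5′ terminal oligopyrimidine (TOP) motif, through which the growth kinase mTORC1 controls how much of the existing message is translated. Array levels measure the message and not its translation. A few ribosomal protein genes have paralogs that are expressed in particular tissues, of which Rpl3l, known from striated muscle in mouse and human, is one.

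Runs of pyrimidines were counted around the start sites of these genes. RefSeq (GRCr8) promoter sequences matched 43 of the 48 genes. In the 50 bases centred on the annotated start, a run of at least 8 bases that were each C or T, read on the transcript strand, was found in 30 of these 43 genes (69.8%), against 5308 of 27457 promoters of all genes (19.3%). It was present in 11 of 12 small subunit genes, 16 of 24 large subunit genes and 2 of 6 paralogs. A C stood at the annotated start in 17 of 43 (39.5%), against 24.2% of all promoters, and a TATAAA in the 50 bases before it in 2 of 43 (4.65%), against 2.46%. The run could lie anywhere in the window, before or after the start, and annotated starts can lie some bases from the true ones. The following stretches run from 25 bases before the start to 15 bases from it, with the longest run of C and T in capitals. Apart from Rps23, they belong to genes whose levels are described below.
Rps23 (chr2:23814492-23814531, plus strand): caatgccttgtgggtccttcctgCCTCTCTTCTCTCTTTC
Rplp0 (chr12:46718376-46718415, minus strand): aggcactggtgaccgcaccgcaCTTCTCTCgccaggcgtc
Rps24 (chr16:96492-96531, plus strand): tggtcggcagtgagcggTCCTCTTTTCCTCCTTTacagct
Rpl13a (chr1:104748899-104748938, minus strand): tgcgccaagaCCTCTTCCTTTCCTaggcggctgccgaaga
Rpl21 (chr12:13386139-13386178, minus strand): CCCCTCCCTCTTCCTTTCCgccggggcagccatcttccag
Rpl3 (chr7:113507976-113508015, minus strand): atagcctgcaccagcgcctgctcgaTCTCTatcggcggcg
Rpl3l (chr10:14258421-14258460, plus strand): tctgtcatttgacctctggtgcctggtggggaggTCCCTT
Rps4y2 (chr4:183000888-183000927, plus strand): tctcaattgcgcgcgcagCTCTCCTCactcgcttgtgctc
Rps23 and Rplp0, whose levels did not pass the test in any comparison, carried runs of 21 and 8 bases, of which the stretch of Rps23 shows 17. Rps24, Rpl13a and Rpl21, which were lower at 14 days, carried runs of 17, 14 and 19 bases, and those of Rpl13a and Rpl21 ended before the start. Around the start used, the longest run of Rpl3 was 5 bases. Its muscle paralog Rpl3l had a run of 9 bases in the 50-base window, of which the stretch shows 6. For Rpl3, Rpl13a and Rps24 the start used lay inside the gene. RefSeq places the outer ends of these genes at bases 113508115, 104748975 and 95429, and runs there were not counted.

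Some arrays stood apart before any comparison was made. Naïve replicates 1 and 2 had hair follicle scores of 1.73 and 2.01 (the mean over marker genes of each gene's deviation from its own mean, log2), against -3.72 to -3.56 in the other 4 naïve arrays, -0.91 to 1.62 at 7 days and 1.81 to 1.91 at 14 days. Their sarcomere scores were -0.07 and -0.81, while the other 4 naïve arrays lay at 0.74 to 1.14, and denervated arrays at -0.64 to 0.56 at 7 days and -0.85 to -0.42 at 14 days. Of 21 sarcomere genes, 15 were lower at 14 days (range of the differences -1.93 to -0.28), and of 15 hair follicle genes 13 were higher. Over all genes 14.6% were lower and 8.95% higher at that time. Of 21 macrophage and myeloid genes 16 were higher at 7 days, and of 16 fibroblast and matrix genes 10. In bulk skin, fewer cells of a type and less RNA per cell cannot be told apart. Within groups, arrays correlated over all genes at 0.931 or more in naïve skin, 0.978 or more at 7 days and 0.993 or more at 14 days.

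Few of the ribosomal protein genes passed the test after denervation. At 7 days 1 of the 48 genes was higher and none was lower, where 7.85% of all genes were higher and 2.66% lower. At 14 days none was higher and 4 were lower (8.33% of the 48), where 8.95% of all genes were higher and 14.6% lower. Between the times, 1 was higher and 3 were lower at 14 than at 7 days (6.25%), where 8.86% of all genes were higher and 10.1% lower. At an unadjusted p under 0.05, limma gave 2 higher genes and 1 lower gene at 7 days (all genes 15.9% and 13.6%). The 14-day numbers at that level were 1 higher and 9 lower, 2.08% and 18.8% of the 48 (all genes 18.8% and 20.8%). Between the times they were 1 higher and 11 lower, 2.08% and 22.9% (all genes 17.8% and 18.7%). The median difference of the 48 genes was 0.04 at 7 days (all genes -0.02), -0.01 at 14 days (all genes 0.02) and -0.07 between the times (all genes -0.01). These values moved with adjustment for the sarcomere score described above. In that fit 24 of the 48 genes (50%) were lower at 14 than at 7 days, where 10.6% of all genes were, and the median was -0.16. At 14 days the median was then -0.18, with 3 genes lower (6.25%, all genes 1.29%). The score itself differed between the groups, so its part and that of the group cannot be fully told apart in this fit. With the hair follicle score instead, 7 genes were lower between the times (14.6%, all genes 11.6%). In the other alternatives 9 or fewer were, the 9 with array weights (18.8%, all genes 18.2%). The comparisons with naïve skin share the naïve arrays and are not independent of each other.

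The small size of these differences was measured with some precision. The 95% interval of the difference lay within 1.5-fold in either direction for 46 of 48 genes at 7 days (95.8%), against 76% of all genes, and for 45 of 48 at 14 days (93.8%), against 72.4%. The probesets of 32 ribosomal protein genes averaged over 12, near the top of a scale on which the brightest probeset of an array lay between 14.01 and 14.39. For these 32 genes every interval lay within 1.5-fold in all 3 comparisons, and the median size of the difference at 14 days was 0.04. The other 60 genes with a mean over 12 had a median size of 0.40, 23 of 60 had an interval within 1.5-fold, and 17 were lower at 14 days. The called ones included sarcomere genes and a hair follicle gene, whose scores differed between arrays as given above, beside genes of neither list. The part of such genes in this contrast was not tested. Brightness depends on the probes, so it does not order the messages by amount.

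**Figure D1:**
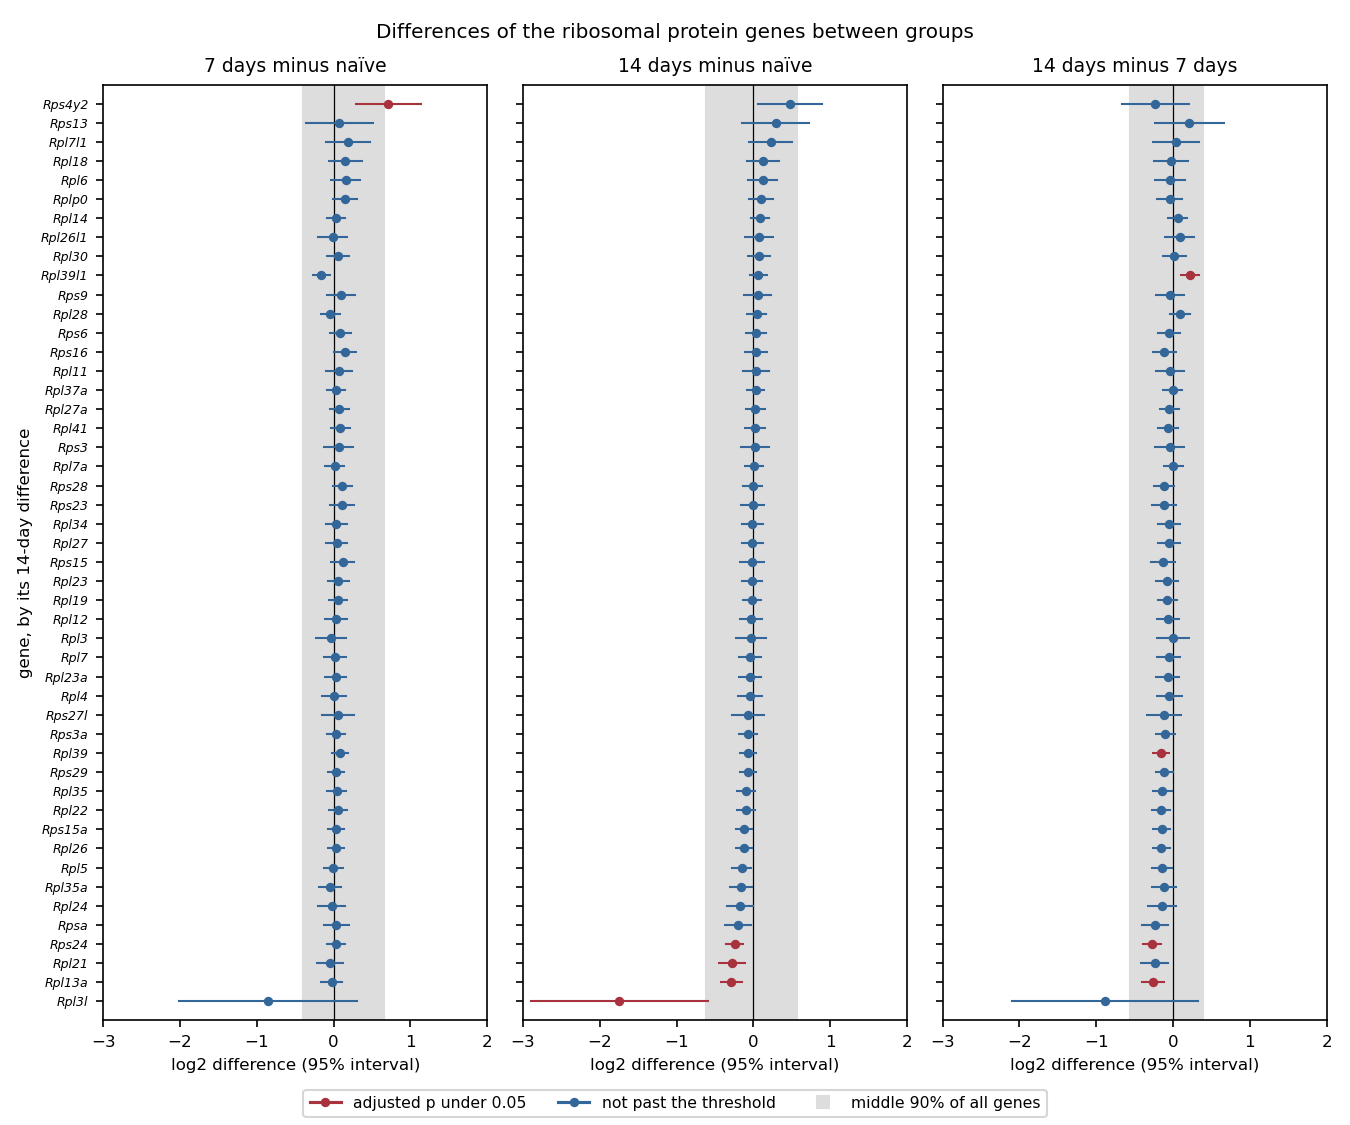
Differences of the 48 ribosomal protein genes in log2 units (points) with 95% intervals (lines), at 7 days minus naïve, 14 days minus naïve and 14 days minus 7 days, sorted by the 14-day difference. Red marks an adjusted p under 0.05 (1, 4 and 4 genes), and the grey band holds the middle 90% of all 14217 genes.

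At 7 days all 13 small subunit genes had differences above 0, from 0.03 to 0.15, and none passed the test. Of all genes, 45.4% had a difference above 0. The medians of the 7-day arrays lay 0.074 above those of the naïve arrays on average, and with this shift subtracted 7 of the 13 differences were above 0. The share of all genes above 0 was not counted after this subtraction. Their median difference moved with it from -0.022 to -0.096. Rps6, the S6 kinase substrate of the small subunit, had naïve levels of 13.15 to 13.44 (median 13.27), 7-day levels of 13.45, 13.27, 13.48, 13.37 and 13.29, and 14-day levels of 13.36, 13.31, 13.35, 13.32 and 13.25. The groups overlapped. Its difference was 0.09 at 7 days (standard error 0.06, adjusted p = 0.367) and 0.03 at 14 days (adjusted p = 0.727). Rps3, which lies where messenger RNA enters the ribosome, had levels of 12.46 to 12.96 in naïve skin (median 12.69), 12.92, 12.62, 12.94, 12.79 and 12.71 at 7 days and 12.81, 12.72, 12.82, 12.70 and 12.70 at 14 days. It too overlapped in all groups, with differences of 0.07 (adjusted p = 0.627) and 0.02 (adjusted p = 0.875). Of the other small subunit genes, Rps16 had the highest 7-day difference, 0.15, with an adjusted p of 0.164.

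Rps24 was lower at 14 days than in either other group. This small subunit protein is encoded by a gene whose message is spliced in more than 1 way at its 3′ end in human and mouse, and mutations of it cause Diamond-Blackfan anemia in human. Its levels were 9.76 to 10.00 in naïve skin (median 9.97), 9.95, 9.86, 9.96, 9.93 and 10.10 at 7 days, and 9.71, 9.71, 9.62, 9.66 and 9.69 at 14 days. All 14-day arrays lay below all naïve and all 7-day arrays. The difference was -0.24 at 14 days (standard error 0.05, adjusted p = 0.00794) and -0.28 between 14 and 7 days (standard error 0.06, adjusted p = 0.00618), and at 7 days it was 0.03 (adjusted p = 0.702). The gene's level is the median of a pair of probesets that behaved differently. Tested singly, the dimmer one averaged 6.46 at 14 days and 6.86 in naïve skin (-0.39, adjusted p = 0.021), and the brighter one 12.90 and 12.99 (-0.10, adjusted p = 0.201). With the brighter probeset in place of the median, Rps24 did not pass at 14 days (adjusted p = 0.203) or between the times (-0.13, adjusted p = 0.113).

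Rpsa, the laminin receptor precursor and a protein of the small subunit, showed differences of -0.20 at 14 days (standard error 0.08, adjusted p = 0.073) and -0.24 between the times (adjusted p = 0.0547), which did not pass. Its levels were 11.93 to 12.15 in naïve skin (median 12.10), 12.17, 12.07, 12.28, 12.23 and 11.84 at 7 days, and 11.97, 11.87, 11.95, 11.93 and 11.68 at 14 days. The 14-day arrays overlapped with naïve skin only through naïve replicate 5. Of its 3 probesets, 1 was lower when tested singly at 14 days (-0.29, adjusted p = 0.0121), while another had a difference of 0.06 (adjusted p = 0.576).

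Of the 28 large subunit genes, none was called at 7 days, and their differences ran from -0.05 to 0.16. At 14 days 2 were lower, Rpl13a and Rpl21. Rpl13a, which in human monocytes also leaves the ribosome to silence inflammatory messages, had levels of 12.07 to 12.27 in naïve skin (median 12.17), 12.22, 12.12, 12.30, 12.17 and 11.91 at 7 days, and 11.96, 11.83, 11.89, 11.95 and 11.77 at 14 days. All 14-day arrays lay below all naïve arrays, and 7-day replicate 5 lay among them. Its difference was -0.29 at 14 days (standard error 0.06, adjusted p = 0.00902), -0.26 between the times (standard error 0.07, adjusted p = 0.0178) and -0.02 at 7 days (adjusted p = 0.818).

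Rpl21, mutated in a hereditary form of sparse hair in human, followed a like course. Its levels were 11.58 to 11.76 in naïve skin (median 11.70), 11.74, 11.62, 11.85, 11.67 and 11.36 at 7 days, and 11.53, 11.39, 11.48, 11.43 and 11.20 at 14 days. Again no 14-day array reached a naïve array, and 7-day replicate 5 was the lowest of its group. The difference was -0.28 at 14 days (standard error 0.08, adjusted p = 0.0241) and -0.24 between the times (adjusted p = 0.0548). The 14-day call was lost without naïve replicate 4 or 6 or 14-day replicate 2 or 5, with adjusted p up to 0.0635. With adjustment for the hair follicle score the 14-day differences of Rpl13a, Rpl21 and Rps24 were -0.29, -0.29 and -0.20 and did not pass (adjusted p = 0.098, 0.164 and 0.14), in a fit in which 1.53% of all genes were lower. After a second quantile normalization they were -0.15, -0.10 and -0.14 and did not pass either (adjusted p = 0.0524, 0.252 and 0.126). With adjustment for the sarcomere score, Rpl13a passed (-0.35, adjusted p = 0.0468), while Rpl21 (-0.38, adjusted p = 0.0672) and Rps24 (-0.18, adjusted p = 0.157) did not.

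**Figure D2:**
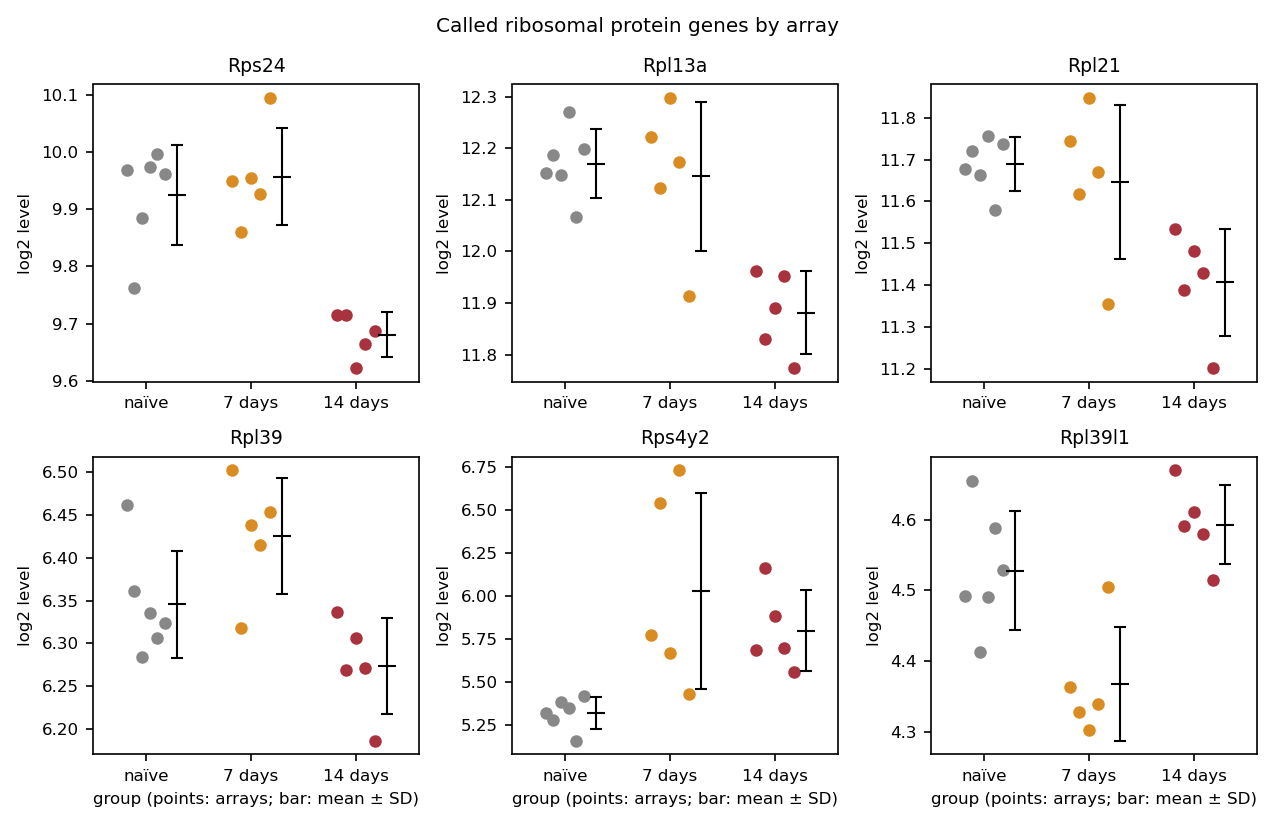
Log2 level of 6 ribosomal protein genes in each array (points) of naïve skin and of skin 7 and 14 days after denervation, with the group mean and SD (bars; each panel has its own axis, which does not start at 0). Rps24, Rpl13a and Rpl21 lie below all naïve arrays at 14 days, and the 7-day arrays of Rps4y2 lie between 5.43 and 6.73.

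Rpl5 and Rpl11 carry the 5S ribosomal RNA into the large subunit and, when free, bind the p53 regulator Mdm2. Rpl5 had a difference of -0.15 at 14 days (standard error 0.06, adjusted p = 0.0643), with levels of 12.94, 12.88, 12.85, 12.90 and 12.73 against 12.86 to 13.08 in naïve skin. Rpl11 was at 0.03 (standard error 0.08, adjusted p = 0.794). The stalk protein Rplp0, which recruits the elongation factors and is often used as a reference message, had levels of 12.76 to 13.20 in naïve skin (median 13.02), 13.23, 13.05, 13.25, 13.20 and 13.10 at 7 days and 13.21, 13.16, 13.14, 13.11 and 13.01 at 14 days. Its groups overlapped, and its differences were 0.14 (standard error 0.07, adjusted p = 0.205) and 0.10 (adjusted p = 0.314). Without naïve replicates 1 and 2, the highest naïve arrays, it passed at both times (0.23, adjusted p = 0.0206, and 0.19, adjusted p = 0.0429).

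Rpl39, a small protein of the exit tunnel, was lower at 14 than at 7 days. It had levels of 6.34, 6.27, 6.31, 6.27 and 6.19 at 14 days, against 6.50, 6.32, 6.44, 6.42 and 6.45 at 7 days. The groups overlapped at a single pair of arrays, and the difference was -0.15 (standard error 0.05, adjusted p = 0.0446). The call was lost in 10 of 16 fits without 1 array (adjusted p up to 0.108), with the replicate block and without the dimmest genes. Against naïve skin, the differences of Rpl39 were 0.08 at 7 days and -0.07 at 14 days, and neither passed.

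The widest change among the 48 genes was in Rpl3l, the paralog of Rpl3 known from skeletal and heart muscle in mouse and human. Its levels were 8.15, 9.30, 10.93, 10.98, 11.51 and 11.72 in the 6 naïve arrays (median 10.95), 8.68, 10.50, 8.95, 9.86 and 9.89 at 7 days, and 8.43, 8.70, 8.89, 8.58 and 8.84 at 14 days. All 14-day arrays lay below all naïve arrays other than replicate 2, and the naïve arrays had the widest spread (SD 1.40, against 0.19 at 14 days). The difference was -1.74 at 14 days (standard error 0.54, adjusted p = 0.0333) and -0.85 at 7 days (adjusted p = 0.301), which did not pass. Rpl3 itself, which helps to shape the peptidyl transferase centre, had 14-day levels of 10.94, 10.90, 10.96, 10.95 and 10.81 against 10.68 to 11.19 in naïve skin, and a difference of -0.03 (95% interval -0.23 to 0.16). That value is the median of a pair of probesets, at 0.10 for the brighter (adjusted p = 0.46) and -0.17 for the dimmer (adjusted p = 0.263).

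Rpl3l moved with the muscle markers from array to array. The naïve arrays with its lowest levels, replicates 2 and 1, also had the lowest naïve sarcomere scores (-0.81 and -0.07), and the highest, replicate 5, had the highest score (1.14). With adjustment for the sarcomere score the 14-day difference of Rpl3l was 0.11 (adjusted p = 0.628). The call was also lost with adjustment for hair follicle markers (-0.01, adjusted p = 0.991), with the replicate block (-1.63, adjusted p = 0.0784), with only both groups in the model (adjusted p = 0.0545), without any 1 of naïve replicates 3 to 6 or any 1 of the 14-day arrays (adjusted p up to 0.0782), and without naïve replicates 4 and 5 together (-1.15, adjusted p = 0.172). Without naïve replicates 1 and 2 it was at -2.59 (adjusted p = 2.12e-05), and the 7-day difference, -1.71, passed too (adjusted p = 0.00104). The part of the muscle content of the samples in this result was not tested otherwise.

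**Figure D3:**
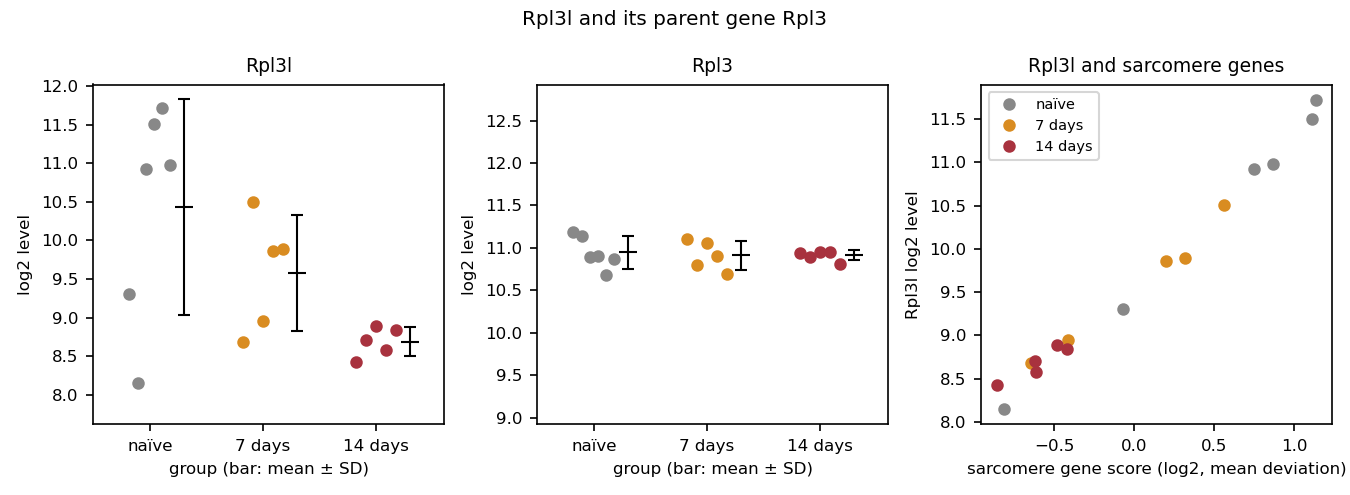
Log2 levels of Rpl3l and of its parent gene Rpl3 in each array by group (points, with mean and SD, on axes of nearly equal length), and Rpl3l against the sarcomere score of the same arrays. Rpl3l spans 8.15 to 11.72 in naïve skin and 8.43 to 8.89 at 14 days and lies higher where the sarcomere score is higher, while Rpl3 stays between 10.68 and 11.19.

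The other paralogs differed less. Rps4y2, a copy of the small subunit gene Rps4 that RefSeq places on chromosome 4, was the gene called at 7 days, with levels of 5.78, 6.54, 5.67, 6.73 and 5.43 against 5.16 to 5.42 in naïve skin. The groups did not overlap, with 7-day replicates 2 and 4 the highest and replicate 5 next to the naïve range. The difference was 0.71 (standard error 0.20, adjusted p = 0.0336), and 0.48 at 14 days (adjusted p = 0.0865). The call at 7 days was lost without 7-day replicate 2 or 4 or naïve replicate 4, 5 or 6 (adjusted p up to 0.0905), without naïve replicates 4 and 5 together (adjusted p = 0.137) and with only both groups in the model (adjusted p = 0.0987). The signal was low, and such probes may not keep apart copies with a like sequence.

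Rpl39l1 was higher at 14 than at 7 days (0.23, standard error 0.06, adjusted p = 0.0152), with 4.67, 4.59, 4.61, 4.58 and 4.51 at 14 days against 4.36, 4.33, 4.30, 4.34 and 4.50 at 7 days. Every 14-day array lay above every 7-day array, and 7-day replicate 5 lay next to the 14-day range. These levels lie near the low end of the scale, where 1% of genes average under 3.78. Rpl7l1 had a difference of 0.22 at 14 days (adjusted p = 0.22), and was at 9.36 and 9.34 in naïve replicates 1 and 2 where the other naïve arrays lay at 8.70 to 8.80. Rpl26l1, and Rps27l, a p53 target in human cells, had differences of 0.07 and -0.07 at 14 days, and neither passed. Rpl26, the parent of Rpl26l1, was at -0.13 (adjusted p = 0.0762), and Rpl7, the parent of Rpl7l1, at -0.04 (adjusted p = 0.68).

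In 8 of the 48 genes (Rpl28, Rpl30, Rpl39, Rpl39l1, Rpl26l1, Rps4y2, Rps13 and Rps27l) the probesets with a single gene averaged under 8. Probesets that list Rpl28, Rpl30 or Rps13 together with copies averaged 12.66, 12.79 and 12.52 in naïve skin, so the low single values of these 3 genes say little about them. Tested one by one in a fit of all probesets, none of the 36 shared probesets was called at 7 days. At 14 days 4 were lower (11.1%) and none was higher, and between the times 2 were lower (5.56%). The share lower over all probesets is not given here, and in the fit of genes it was 14.6% and 10.1%. The 4 were those of Rpl37 copies (12.44 at 14 days and 12.79 in naïve skin, -0.35, adjusted p = 0.00339), of Rpl30 with its copies (-0.22, adjusted p = 0.0133), of Rps25 with its copies (-0.30, adjusted p = 0.0265) and of Rps19 with its copies (-0.20, adjusted p = 0.0339). Rps19 is the gene most often mutated in Diamond-Blackfan anemia, and Rps25 is needed for initiation at some viral internal entry sites. These values cannot be assigned to a single gene.

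The bright genes moved together from array to array within a group. Among the 32 genes with a mean over 12, naïve replicate 2 was the highest naïve array for 22 and replicate 1 for 7, and naïve replicate 5 was the lowest for 29. At 7 days replicate 3 was the highest for 28, and at 14 days replicate 1 was the highest for 25 and replicate 5 the lowest for 25. Their SD between arrays had a median of 0.12 in naïve skin, 0.10 at 7 days and 0.06 at 14 days. Rpl3l ran the other way, and was highest in naïve replicate 5.

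**Figure D4:**
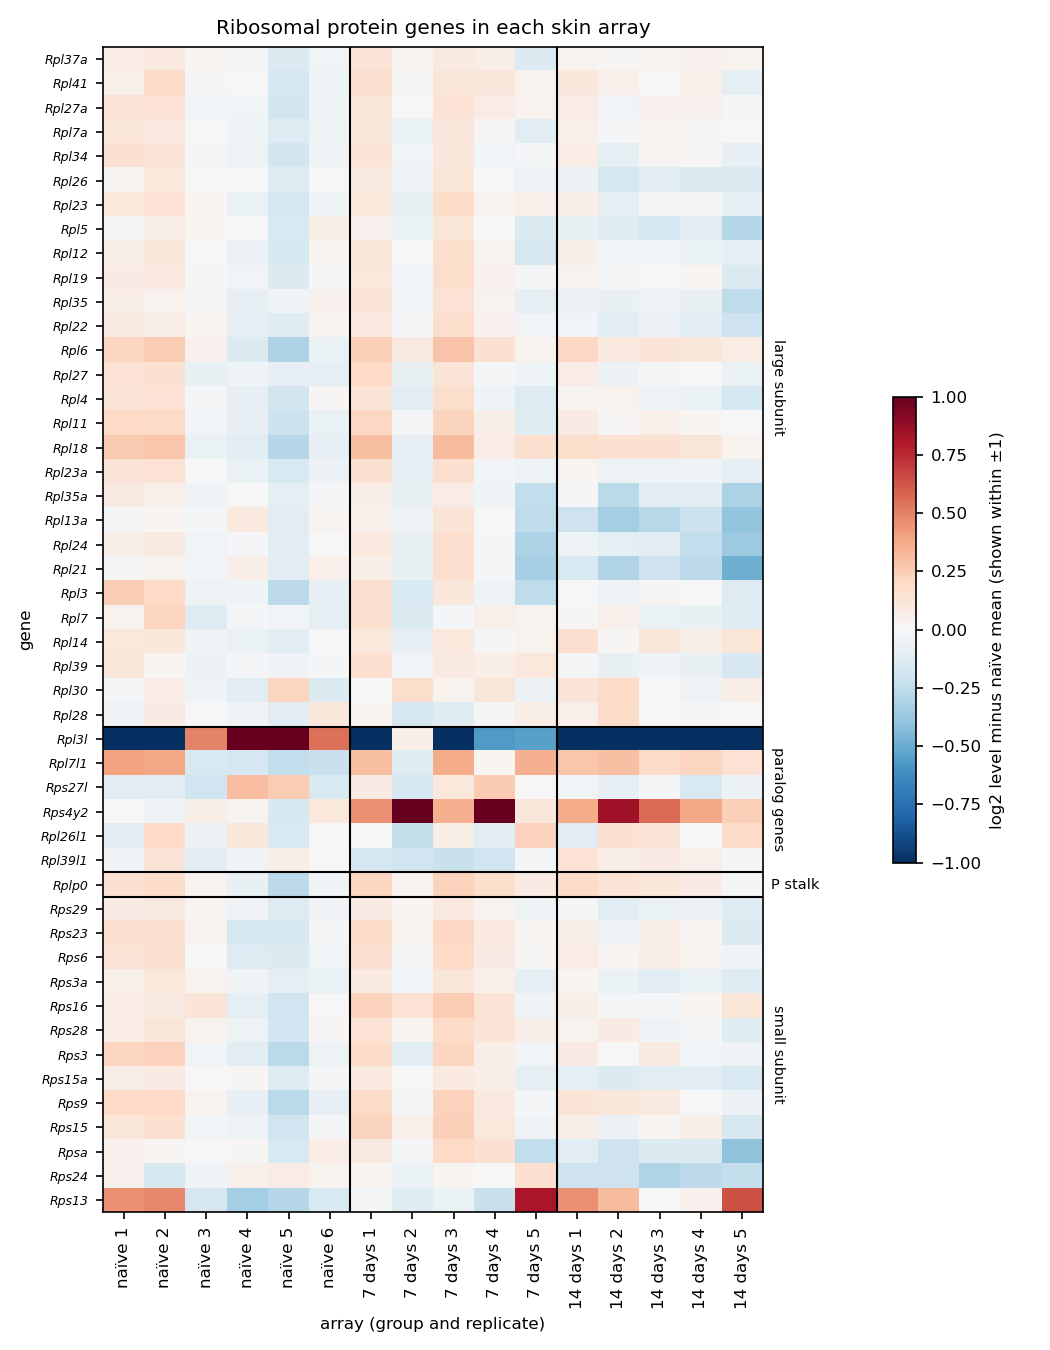
Level of each of the 48 ribosomal protein genes in each of the 16 arrays, as log2 level minus the gene's naïve mean (colours end at 1 and -1), with arrays grouped as naïve, 7 days and 14 days and genes grouped by role. Naïve replicates 1 and 2 are above the naïve mean and replicate 5 is below it for most bright genes, Rpl3l is lower in all 14-day arrays, and Rps4y2 is higher in the 7-day and 14-day arrays.

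Naïve replicates 1 and 2 had the highest naïve levels of most bright genes, and the counts against naïve skin differed without them. With all arrays, 7.85% of all genes were higher and 2.66% lower at 7 days, and 8.95% and 14.6% at 14 days. Without naïve replicates 1 and 2, 8 ribosomal protein genes were higher and 1 was lower at 7 days (19% and 16.4% of all genes). At 14 days 6 were higher and 4 lower (21.1% and 21.8% of all genes). Those higher at both times included Rplp0, Rpl18, Rpl6 and Rpl7l1. Without naïve replicates 4 and 5, none was called at 7 days and 2 were lower at 14 days, Rpl13a and Rps24. In that fit 2.43% of all genes were higher and 0.324% lower at 7 days, and 4.98% were lower at 14 days. The median difference at 14 days was 0.056 without naïve replicates 1 and 2, and -0.069 without naïve replicates 4 and 5. Whether the hair cycle or the muscle share of these arrays bears on the levels of ribosomal protein genes was not tested further.

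Other genes of protein synthesis were measured on the same arrays, where 8.95% of all genes were higher and 14.6% lower at 14 days. Of 73 mitochondrial ribosomal protein genes, which serve the separate ribosome of mitochondria, 31 were lower and 1 was higher (42.5% and 1.37%), with a median of -0.21. Mrps14, with the lowest p, was at -0.36 (adjusted p = 0.00421), and Mrpl45, which ties that ribosome to the inner membrane in mammals, had the largest decrease, -0.64 (adjusted p = 0.00697). Of 54 ribosome biogenesis factors 1 was lower and none was higher. It was Ltv1, an assembly factor of the small subunit, with levels of 7.74, 7.76, 7.74, 7.65 and 7.63 at 14 days against 7.72 to 8.24 in naïve skin (-0.29, adjusted p = 0.0284). The sarcomere score moved with these groups, as given above, and its part was not tested.

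Among 31 translation initiation factors, 4 were higher and 4 lower at 14 days (12.9% each). Their median difference was 0.31, and 22 of the 31 differences were above 0, as were 54.2% of all genes. At an unadjusted p under 0.05, limma gave 14 higher and 4 lower (all genes 18.8% and 20.8%). Eif4a2, a helicase paralog of the cap-binding complex, had levels of 8.54, 8.69, 8.76, 8.69 and 8.80 at 14 days against 9.12 to 9.60 in naïve skin, with no overlap (-0.68, standard error 0.09, adjusted p = 0.000706). None of 10 elongation and termination factors was called (1 higher and 1 lower at an unadjusted p under 0.05). Eef1a1, which brings aminoacyl-tRNA to the ribosome and whose message is itself a TOP message, was at -0.04 (adjusted p = 0.656), its muscle and neuron paralog Eef1a2 at -0.50 (adjusted p = 0.0907), and the translocase Eef2 at -0.01 (adjusted p = 0.943). Rack1, which sits on the small subunit and is also a TOP message, was at 0.13 (adjusted p = 0.317).

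Of 12 other TOP genes, 2 were lower at 14 days (16.7%, against 14.6% of all genes), Hnrnpa1 and Eif4b (-0.30, standard error 0.06, adjusted p = 0.00549), a helper of the cap-binding helicase, which is also in the list of initiation factors. Of 17 genes of mTORC1, S6 kinase and Myc control, 4 were lower and none was higher. Rps6kb1, the S6 kinase that phosphorylates Rps6, had levels of 7.66, 7.67, 7.69, 7.47 and 7.61 at 14 days against 7.92 to 8.90 in naïve skin. The groups did not overlap, and the difference was -0.80 (standard error 0.15, adjusted p = 0.00381). It was not recomputed under the alternatives. The message of Rps6 was at 0.03, and phosphorylation of the Rps6 protein was not measured. Whether these lists differ from the ribosomal protein genes was not tested.

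**Figure D5:**
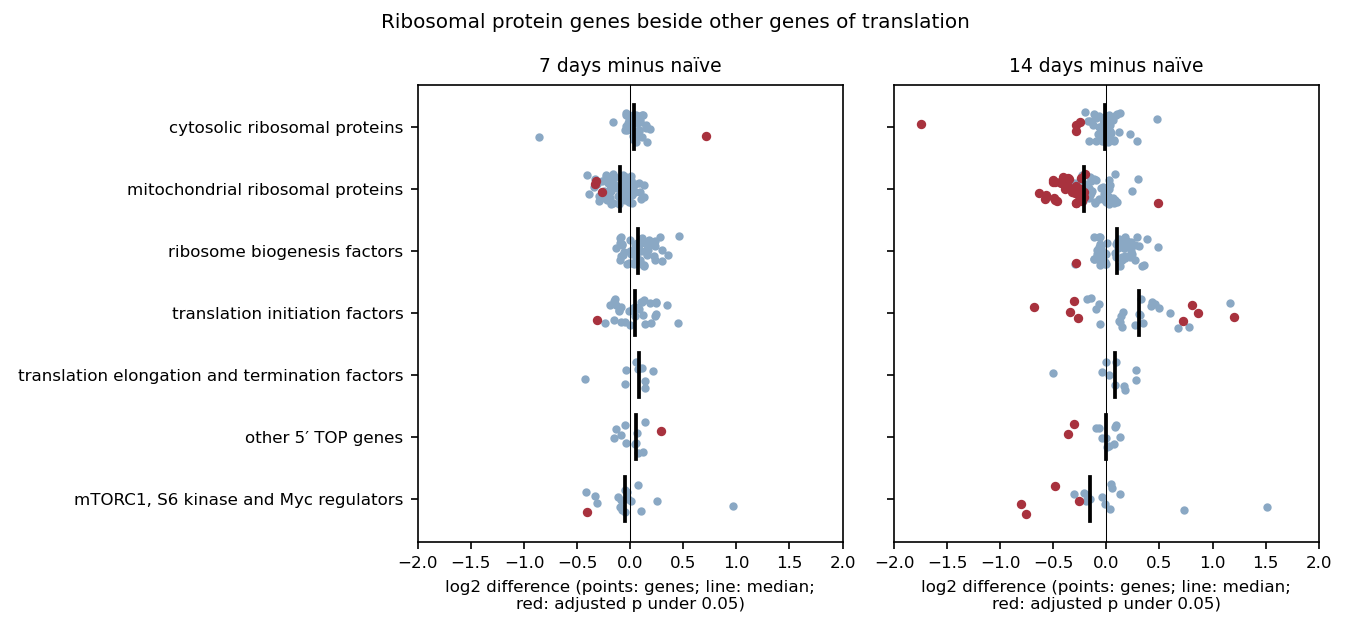
Log2 differences of single genes (points, red where the adjusted p is under 0.05) and their median (line) for ribosomal protein genes and 6 other groups of translation genes, at 7 days minus naïve and 14 days minus naïve. At 14 days the median of the 48 cytosolic ribosomal protein genes is -0.01 and that of the 73 mitochondrial ones is -0.21.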

How the data were processed

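Polyadenylated RNA of 16 skin samples (6 naïve, 5 at 7 days and 5 at 14 days) was measured on 1-colour arrays. The deposited values are log2 signals that the authors had normalized by RMA. Their notes list R 3.0.1, while a version of RMA is not given in the sources used. The number of arrays limits the precision.

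Of 31099 probesets, 57 were controls, 9780 had no gene and 436 listed more than 1. The other 20826 were reduced to 1 value a gene by their median. Genes were compared in R 4.3.3 with limma 3.58.1, in 1 model with a mean for each group, and adjusted p values are by the Benjamini-Hochberg method over all genes. Single probesets were tested in the same way in a fit of all probesets other than controls, with adjustment over those probesets. The fit of genes was first tested on simulated data. The labels give no batches, and nothing says that samples are more than separate samples of a group, so p values measure the spread between these samples. Nothing in the labels pairs samples by replicate number. The deviations of same-numbered samples in different groups correlated at -0.552 to 0.583, over 0.1 in 8 of 15 pairs. These values cannot settle whether same-numbered samples shared a batch, since content such as hair and muscle also differed between arrays.

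The members and gene lists were chosen with earlier results of these data known. The genes named are the stalk genes, the paralogs with their parents, genes of known roles, the called genes with the lowest p, and the lowest p of each other list at 14 days. Rps16, Rps23, Rpl6, Rpl18, Rpl28, Rpl30, Rps13, Hnrnpa1, the mitochondrial genes and the shared probesets were named after their values were seen. Start-site sequences are from RefSeq (GRCr8). The alternatives changed the collapse of probesets, scaling, array weights, moderation, the arrays used, covariates, a replicate block and the threshold.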

Additional observations from a re-analysis of the deposited data

Results flagged for a closer look

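Naïve replicate 5 lay apart from the other naïve arrays for Rpl5, at 12.86 with the nearest other array at 13.01, and for Rpsa, at 11.93 with the nearest at 12.08. Of 57 groups of values examined, these 2 had such a gap at the low end, and chance alone gives about 1 in 20. It was also the lowest naïve array for 29 of the 32 bright ribosomal protein genes and had extreme log2 differences between beta-actin probesets. The 3 prime minus middle value was the highest (1.20, where denervated skin had 0.05 to 0.29). Naïve replicates 3, 4 and 6 also lay above all denervated arrays (0.52, 0.96 and 0.85), while naïve replicates 1 and 2 had 0.18 and 0.23. In replicate 5 the 3 prime minus 5 prime value was the lowest (0.14, where the other 15 arrays had 0.47 to 0.74). Its Gapdh 3 prime minus 5 prime value, 0.31, lay within the range of the others, 0.23 to 0.42. Without it, Rpl5 and Rpl26 were also called lower at 14 days. The part of these differences was not tested.

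The direct comparison of the times differed for 4 genes. Rps24 was at -0.28 and Rpl13a at -0.26 at 14 minus 7 days, Rpl39 was at -0.15, and Rpl39l1 was at 0.23. With its brighter probeset alone Rps24 was at -0.13 and did not pass (adjusted p = 0.113).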

How the results depend on the processing

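The medians of the 48 genes and the counts of called genes were recomputed under 18 planned settings and without each of the 16 arrays in turn. The cause of a change was not tested. Without single arrays, 0 to 1 genes were higher at 7 days and 0 to 1 were lower. At 14 days 0 to 1 were higher, and the number of lower genes was 2 to 5. The 5 (10.4%) came without naïve or 7-day replicate 5, where 10.1% and 14.6% of all genes were lower. Between the times 2 to 7 were lower and 1 was higher in each fit. The 7 (14.6%) came without 7-day replicate 5, where 11.1% of all genes were lower. The medians then ran from 0.02 to 0.07 at 7 days, from -0.05 to 0.02 at 14 days and from -0.10 to -0.04 between the times.

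With array weights, 5 genes were higher and 2 lower at 7 days, 5 higher and 8 lower at 14 days, and 9 lower at 14 than at 7 days, where 15% and 12%, 25.1% and 24%, and 18.2% of all genes were. Without naïve replicates 1 and 2, the counts were 8 and 1 at 7 days (16.7% and 2.08%), where 19% and 16.4% of all genes were called. At 14 days 6 were higher (12.5%, all genes 21.1%), and between the times 6 were lower (12.5%, all genes 16.2%). The 14-day median was 0.056. Without naïve replicates 4 and 5, the counts were 0 higher at 7 days, 2 lower at 14 days and 6 lower between the times. For all genes the shares were 2.43%, 4.98% and 12.9%. With only the groups compared in the model, 0 were higher at 7 days, 1 was higher at 14 days and 5 were lower between the times. The shares of all genes were 1.86%, 6.81% and 17.7%. Subtracting the array median gave a 7-day median of -0.036 (all genes -0.096, with 951 higher and 1492 lower, against 1116 and 378 as deposited). It gave 1 gene lower at 7 days and 8 lower at 14 days (2.08% and 16.7%, against 10.5% and 15% of all genes). A second quantile normalization gave 2 genes higher at 7 days, 1 lower at 14 days, and 0 higher and 0 lower between the times. Over all genes these shares were 6.69%, 14.4%, 6.35% and 5.16%. With adjustment for the sarcomere score, the median was -0.18 at 14 days and -0.16 between the times, 24 genes were lower between the times (50%, against 10.6% of all genes), and Rpl3l turned to 0.11 at 14 days. With adjustment for hair follicle markers, the 14-day median was -0.15. In that fit 0 genes were lower at 14 days, 1 at 7 days and 7 between the times. Of all genes, 1.53%, 4.87% and 11.6% were lower. Trended and robust moderation gave 1 lower at 7 days (2.57% of all genes were lower). At an adjusted p under 0.01, 0 were higher at 7 days and between the times, 2 were lower at 14 days and 1 between the times. Of all genes, 2.37% and 1.58% were then higher, and 4.43% and 2.31% lower. Leaving out the dimmest genes, the 5 paralogs with an l in the symbol, or members under 8 left 0 higher between the times, and the last also 0 at 7 days. So did leaving out all 6 paralogs, with 0 called at 7 days. Between the times 5.31% of all genes were higher without the dimmest genes, and 8.86% in the other fits. The choices of members under 8 and of all 6 paralogs were made after seeing the data. The labels do not pair the samples by replicate number. The replicate block gave 1 higher at 7 days, 3 lower at 14 days (Rpl3l lost) and 4 lower between the times. For all genes these shares were 5.25%, 6.32% and 8.51%.

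Of the calls of single genes, Rpl13a at 14 days held in 31 of 33 alternatives (adjusted p 0.000533 to 0.098), Rps24 in 29 of 33 (9.54e-05 to 0.203) and Rpl21 in 24 of 33 (0.00327 to 0.252). Rps4y2 at 7 days held in 25 of 33 (0.0108 to 0.137). Rpl3l at 14 days held in 18 of 33 (2.12e-05 to 0.991) and changed sign in 1. Between the times, Rpl13a and Rps24 held in 31 of 33, Rpl39l1 in 30 of 32 and Rpl39 in 17 of 33 (0.0172 to 0.14).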
